A study of Homo sapiens with 18 samples.

Results

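NCI-H1975 is an established human lung adenocarcinoma cell line that grows as epithelial cells, and the comparison described here sets its control mRNA libraries from 2 experiments against each other. One control is the 3 libraries labelled Scramble, and it is measured against the 3 libraries labelled sgControl, whose treatment label reads CRISPR Control. These 6 libraries were picked by their labels, out of 18 in the series, of which 9 are mRNA and 9 are ribosome footprints. The comparison itself was chosen with earlier results of these data known. Per the design text, the Scramble libraries belong to a search for lncRNAs with coding potential, and the sgControl libraries to an experiment on knockout of the peptide DAMP, encoded by the lncRNA DSP-AS1. Another mRNA group, sgDAMP, carries that knockout and belongs to the same experiment as sgControl. The labels name no drug and no other allele for the mRNA libraries of either control. They give neither the vector of either control nor whether the cells were clones or pools, and they do not say whether the 3 libraries of a group came from separate cultures, so the p-values measure the spread between these libraries, which may be technical. Both controls were prepared by TRIzol extraction, oligo(dT) enrichment and random-primed reverse transcription, per the labels. Because each control belongs to its own experiment, control, experiment and counting cannot be told apart.

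A control with a scrambled sequence and a control with a guide that has no intended target are both meant to show the unperturbed state of a line. The amounts of cell-cycle, cytokine and stress transcripts in such a line are known to depend on the growth state, density and medium of a culture. The count of a gene also depends on how the sequencing reads were assigned to genes. Where genes on opposite strands overlap, a count made without strand gives no gene a read that both could own, and a count made with strand gives it to one of them.

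Most tested genes differed between the 2 controls. Genes of DNA replication, replication-dependent histones, cytosolic ribosomal proteins, the nuclear-encoded respiratory chain, keratins and S100 proteins were mostly lower in Scramble cells, as were the cytokine genes CCL2, IFNL1 and IFNB1. The chaperone genes HSPA5 and HSP90B1 and 4 of 5 nuclear-retained lncRNAs were higher. Some of the highest fold changes belonged to genes whose span overlaps a more abundant gene, such as BEST1 beside the ferritin gene FTH1. Of 1954 genes with no RefSeq match, whose spans were not placed, 1237 lay above a log2 change of 3. So did 225 of 5516 coding genes with a clear span. The share of reads assigned to genes also differed between the controls.

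The libraries held 10859527 to 12424884 gene counts in Scramble and 17098397 to 17464782 in sgControl. Of all counted lines, 42.51% to 43.2% fell in no feature in Scramble, against 1.147% to 1.434% in sgControl. Lines called ambiguous, which more than 1 gene could own, made up 3.127% to 3.211% in Scramble and 13.68% to 14.3% in sgControl. The lncRNA share of gene counts was 2.046% to 2.133% in Scramble and 0.4242% to 0.5814% in sgControl, and 15711 to 16232 genes reached 10 counts in Scramble, against 13275 to 14124 in sgControl. In sgDAMP the no-feature share was 1.099% to 1.316% and the ambiguous share 13.73% to 14.7%. The part of these shares in any gene's difference was not tested. The libraries of a group differed beyond sampling noise, with a mean chi-square per degree of freedom of 4.11 over genes in Scramble and 38.35 in sgControl, so none was counted as a repeat of another. The first principal component of log2 CPM held 93.43% of the variance and separated the controls, and the second held 3.824% and spread the sgControl libraries.

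**Figure D1:**
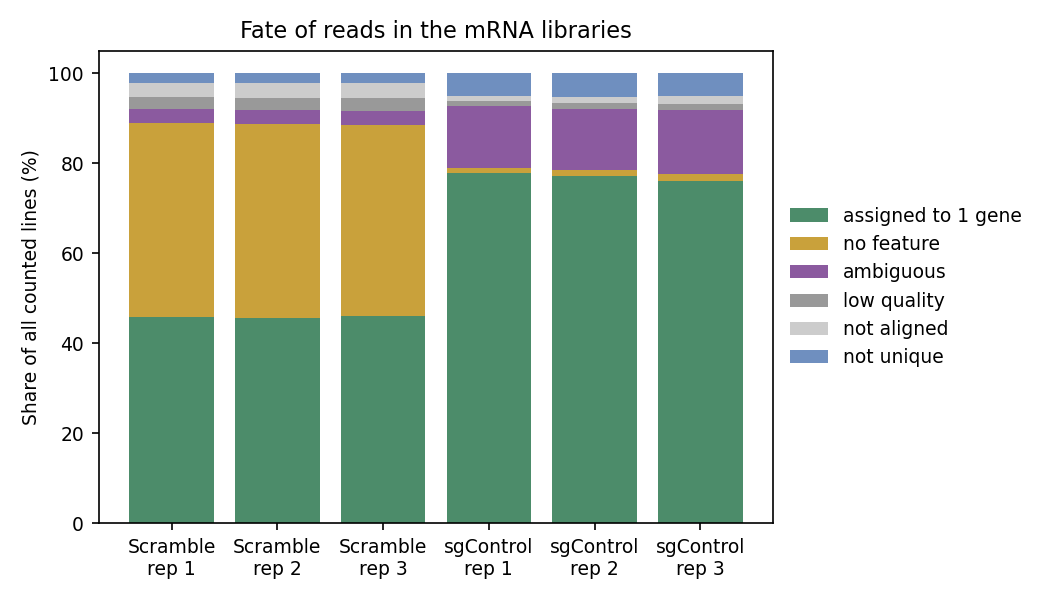
Stacked bars show the share of all counted lines, in percent, that were assigned to 1 gene, fell in no feature, were ambiguous, had low quality, did not align or were not unique, for each of the 3 Scramble and 3 sgControl mRNA libraries. The no-feature part takes 42.51% to 43.2% of each Scramble bar and 1.147% to 1.434% of each sgControl bar.

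Of 16360 genes tested, 13015 (79.6%) differed at a Benjamini-Hochberg adjusted p under 0.05 by the quasi-likelihood test of edgeR. Of these, 7544 (46.1% of those tested) were higher in Scramble and 5471 (33.4%) were lower. A log2 change of at least 1 in size was reached by 10945 called genes (66.9% of those tested), 6670 of them higher (40.8%) and 4275 lower (26.1%). For 13510 genes (82.6%) the 3 Scramble values all lay on one side of the 3 sgControl values, which is the background against which such a separation of any single gene has to be read. Changes here are on the scale of trimmed-mean (TMM) scaled CPM (gene counts relative to the library total), Scramble over sgControl. With library totals in place of TMM factors, 12864 genes (78.6%) were called, of which 9708 (59.3%) were higher and 3156 (19.3%) lower. The median tested gene lay at a log2 change of 1.25 with library totals and 0.42 with TMM, a shift of 0.83. The direction of a gene or list with a small change therefore rests on the scaling. The total-count values stand beside the lists below other than the fibroblast, leukocyte, endothelial and red blood cell markers. A list's counts have to be read against the shares over all tested genes, 46.1% higher and 33.4% lower with TMM, and 59.3% higher and 19.3% lower with library totals. A span was called clear where it overlapped no other RefSeq gene, with small RNA genes such as snoRNAs and miRNAs left aside. Among 5516 protein-coding genes with a clear span, 4375 (79.3%) were called, 1783 (32.3%) of them higher and 2592 (47%) lower. Their median was -0.41 with TMM and 0.42 with total-count scaling. Values over list members with a clear span have to be read against these.

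The set against which Scramble was measured could be exchanged for sgDAMP with a like count of calls. Against sgDAMP, 12320 of 16405 genes (75.1%) were called, 6891 (42%) higher in Scramble and 5429 (33.1%) lower. Between sgDAMP and sgControl, no gene of 14032 (0%) passed in edgeR, 741 had an unadjusted p under 0.05, limma-voom called 0 and DESeq2 called 21. These comparisons share libraries with the main one, and Scramble over sgDAMP values are given below for IFNL1 and IFNB1.

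Genes that overlap an opposite-strand gene stood apart from clear genes of their biotype in size and direction of change. Among lncRNAs whose span overlaps a gene on the opposite strand, 433 of 601 tested were higher in Scramble and 66 lower, with a median log2 change of 2.77, and 48.9% of them lay above a log2 change of 3. Among lncRNAs with a clear span, 104 of 326 were higher and 120 lower, with a median of -0.18. Coding genes that overlap an opposite-strand gene had 1766 of 3807 higher and 1265 lower, a median of 0.40, and 9.64% above a log2 change of 3, against 4.08% of clear coding genes. Their shares higher and lower were near the 46.1% and 33.4% of all tested genes. The lncRNAs that overlap only a same-strand gene had 5 of 24 higher, 9 lower and a median of -0.17. Where a strand was unknown, the median was 2.38 over 331 lncRNAs and 0.60 over 2930 coding genes. Genes with no RefSeq match had the highest median, 5.96 over 1954 tested genes. These medians are relative to 0.42 over all tested genes.

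**Figure D2:**
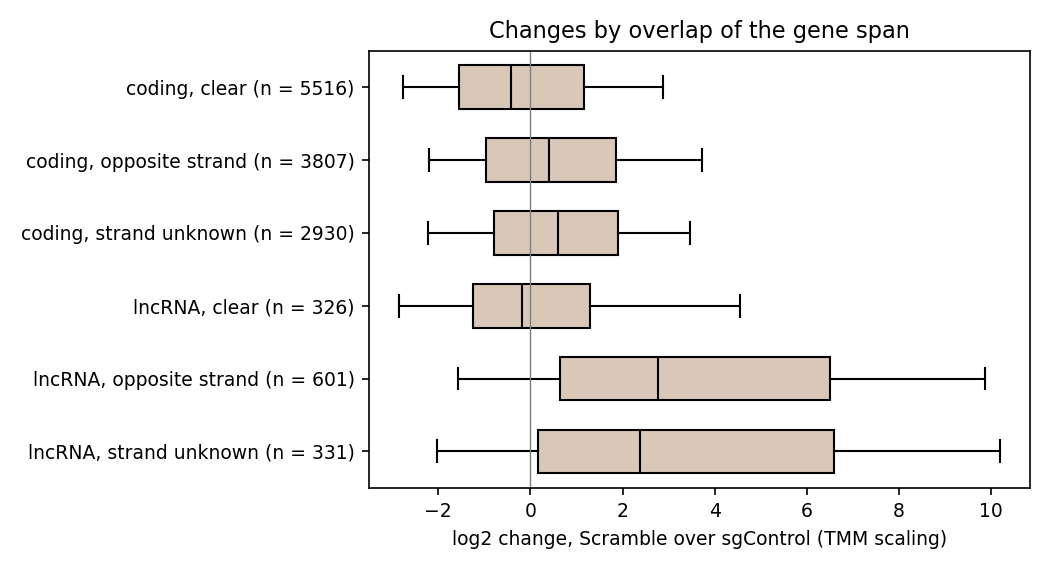
Boxes show the log2 change of Scramble over sgControl (horizontal axis, TMM scaling) for tested genes in 6 classes of biotype and span overlap, with medians, quartiles and whiskers at the 5th and 95th percentiles. Opposite-strand lncRNAs have a median of 2.77 and clear lncRNAs of -0.18.

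BEST1 and FTH1 were an abundant pair with overlapping spans, although the annotation used gave no strand for either. FTH1 encodes the heavy chain of ferritin, the iron store of the cell, and BEST1 encodes a chloride channel best known in the retinal pigment epithelium. Their RefSeq spans share chr11:61964285-61965515 (GRCh38.p14). BEST1 had 110132, 125932 and 111236 counts in the Scramble libraries and 23, 40 and 27 in the sgControl libraries, a log2 change of 11.65 ± 0.30 (SE, adjusted p = 7.44e-08). FTH1 itself had 145244, 166668 and 151042 counts in Scramble and 57546, 49394 and 52586 in sgControl. BEST1 thus stood at 73.65% to 75.83% of the FTH1 count in every Scramble library, and at 0.040% to 0.081% in the sgControl libraries. In the ribosome footprints, BEST1 had 2 counts over the 3 Scramble libraries and 4 over the 3 sgControl libraries.

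Other pairs showed the same split. MRNIP, a factor of DNA double-strand break repair, shares chr5:179837276-179838078 with SQSTM1, the autophagy receptor p62. MRNIP stood at 43.82% to 45.4% of the SQSTM1 count in Scramble and 0.16% to 0.24% in sgControl, a log2 change of 7.497 ± 0.22 (adjusted p = 1.02e-07). SQSTM1 had 3365, 3127 and 3790.3 scaled CPM in Scramble cells, against 5166, 4399 and 3671 in sgControl cells. Its groups overlapped and its change of -0.36 ± 0.18 missed the threshold (adjusted p = 0.0863), with a total-count value of 0.48. SNX22 stood at 72.83% to 74.1% of the count of PPIB, the cyclophilin of the endoplasmic reticulum, in Scramble and at 0.20% to 0.63% in sgControl. The lncRNA PRADX stood at 76.55% to 102.7% of the lysosomal protease gene CTSD in Scramble, and over the 3 sgControl libraries 1 count was seen. PHLDA1-AS1 stood at 46.45% to 49.7% of PHLDA1 in Scramble and at 0 counts in every sgControl library, which places it at least 1260.0-fold higher in Scramble against a floor of 3 counts over the group. HNRNPK-AS1 (at least 818-fold), at 13.88% to 16.28% of HNRNPK, and NUCB1-AS1 (at least 738-fold), at 27.92% to 33.62% of NUCB1, also had 0 counts in sgControl. The lncRNAs PAPPA-AS1 and CD44-AS1 had 0 counts in sgControl and were at least 1290.0-fold and 825-fold higher. No source used here gives the strand setting with which the reads were counted. Reads of a gene and of its overlapping partner therefore cannot be told apart, and the values of all these genes are uncertain.

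**Figure D3:**
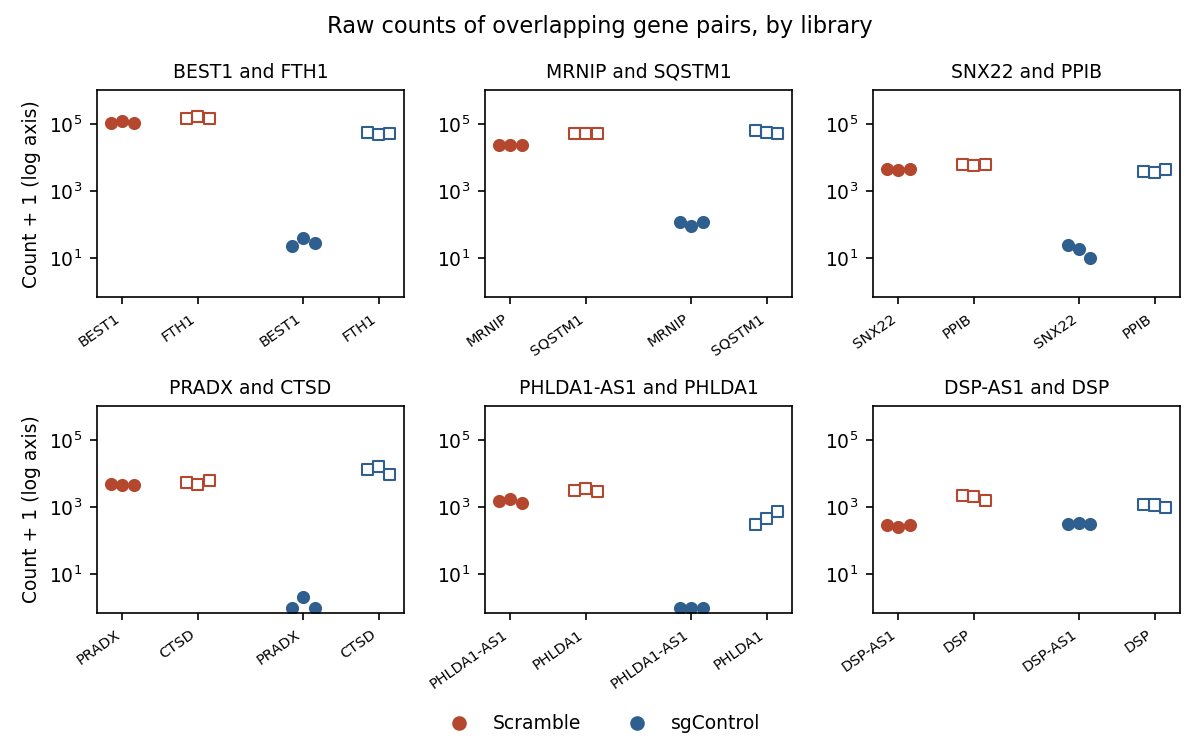
Raw counts plus 1 (log axis) of 6 overlapping pairs in each library, with filled circles for the first gene of a pair and open squares for its partner, and red for Scramble left of blue for sgControl. In 5 pairs the first gene falls far below its partner in sgControl alone, while DSP-AS1 stays at 12.03% to 18.17% of DSP in Scramble and 25.43% to 31.56% in sgControl.

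The study's own lncRNA did not follow this pattern. DSP-AS1 overlaps DSP, the desmoplakin gene of desmosomes, at chr6:7541671-7543083. DSP-AS1 had 18.4, 14.9 and 20.02 scaled CPM in Scramble cells, against 24.2, 26.1 and 22.1 in sgControl cells, so that every Scramble library was below every sgControl library. Its log2 change of -0.44 ± 0.20 missed the threshold (adjusted p = 0.0611), and with total-count scaling it was 0.39. DSP had 137, 124 and 110.2 scaled CPM in Scramble cells, against 95.3, 90.8 and 69.9 in sgControl cells, a higher level in Scramble without overlap (log2 change 0.54 ± 0.18 (SE), adjusted p = 0.0171). Its total-count value was 1.38.

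Coding genes with the highest changes among clear spans, at an average log2 CPM of at least 3, included several at or near 0 in sgControl. GPATCH4, a nucleolar protein gene, had 1027, 1004 and 910 counts in Scramble and 0 in each sgControl library, at least 819-fold higher. NELFCD, a subunit of the negative elongation factor, had 389, 460 and 370 counts in Scramble and 0 in sgControl, at least 339-fold higher. In the footprint libraries, which held 1035159 to 1302852 gene counts in Scramble and 6845899 to 7840852 in sgControl, the counts ran the other way, with 0 footprints of GPATCH4 in Scramble against 25 over the 3 sgControl libraries, and 2 of NELFCD against 64. GNGT1, a G protein subunit gene known from rod photoreceptors, was at least 239-fold higher. SNX32, a sorting nexin, had 3882, 3965 and 3858 counts in Scramble and 3, 1 and 5 in sgControl. Its neighbour CFL1, the actin-severing protein cofilin, had 598, 614 and 679 scaled CPM in Scramble cells, against 2148, 1978 and 1372 in sgControl cells (log2 change -1.54 ± 0.19 (SE), adjusted p = 5.88e-05). JSRP1 (9.99), COX20 (7.37), LHFPL5 (7.26), MEIOC (6.87) and GPS2 (6.696) followed on the log2 scale. KIF5A, MGAT2 and WDR38 had 1 to 3 counts over the sgControl libraries, and their ratios of 1100 (95% interval 196 to 43300), 514 (176 to 2500) and 322 (88.9 to 2670) carry exact intervals for counting error only. Spans came from RefSeq, so a gene called clear can still overlap a small RNA gene or a gene that RefSeq does not hold.

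The other end of the range is given by the 12 lowest called clear coding genes with an average log2 CPM of at least 3 and no overlap of the groups. CYP1A1, the cytochrome P450 that answers to the aryl hydrocarbon receptor, had 2, 1 and 3 counts in Scramble and 360, 257 and 337 in sgControl (log2 change -7.48 ± 0.38 (SE), adjusted p = 4.66e-07). AMHR2, the receptor of anti-Müllerian hormone, had 0, 0 and 4 counts in Scramble and 241, 213 and 228 in sgControl (log2 change -7.53 ± 0.58 (SE), adjusted p = 3.4e-06). Both sat at a few counts per Scramble library and over 200 in sgControl. TENT5B (-5.87), ALOXE3 (-5.09), NEURL3 (-4.92), CIDEC (-4.53) and MPP2 (-4.48) were lower too, and CCL2, IFNL1, CDC20, TK1 and H1-2 are described with their groups.

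Genes of DNA replication were lower in Scramble cells. Of 49 tested, 35 were lower and 2 higher, against 33.4% lower over all genes, with a median of -1.62 (-0.81 with total-count scaling, 11 higher and 27 lower) and of -2.001 over members with a clear span. TK1, thymidine kinase of the salvage pathway, had 12.1, 12.8 and 13.9 scaled CPM in Scramble cells, against 341, 322 and 218 in sgControl cells. The Scramble libraries lay close together and every one was far below the lowest sgControl library (log2 change -4.503 ± 0.22 (SE), adjusted p = 4.23e-07). CDT1, which loads the replicative helicase, had 5.34, 3.57 and 4.47 scaled CPM in Scramble cells, against 89.3, 84.4 and 54.4 in sgControl cells (log2 change -4.09 ± 0.27 (SE), adjusted p = 1.51e-06). MCM5 and MCM7, subunits of that helicase, changed by -4.35 ± 0.30 and -3.09 ± 0.20 (adjusted p = 1.93e-06 and 1.48e-06). E2F1, the transcription factor of the G1 to S step and no member of the list, had 7.38, 7.51 and 7.88 scaled CPM in Scramble cells, against 129, 147 and 76.2 in sgControl cells (log2 change -3.95 ± 0.27 (SE), adjusted p = 1.75e-06).

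Mitosis and G2/M genes were split, with 27 of 50 tested lower (54%), 16 higher and a median of -0.94 (-0.10 with total-count scaling, 18 higher and 23 lower). CDC20, the activator of the anaphase-promoting complex, lies at chr1:43358981-43363203 on the + strand. It had 9.603, 8.16 and 10.2 scaled CPM in Scramble cells, against 279, 225 and 184 in sgControl cells, 24.6 times as much in sgControl cells (log2 change -4.62 ± 0.22 (SE), adjusted p = 3.64e-07). PLK1, the polo-like mitotic kinase, had 10.2, 9.83 and 10.5 scaled CPM in Scramble cells, against 229.6, 199 and 131 in sgControl cells (log2 change -4.19 ± 0.24 (SE), adjusted p = 8.73e-07). UBE2C, the ubiquitin-conjugating enzyme of the same complex as CDC20, and BIRC5, or survivin, changed by -3.22 ± 0.20 and -2.85 ± 0.16 (adjusted p = 1.14e-06 and 7.26e-07). AURKB, the kinase of the chromosomal passenger complex, had 3.63, 4.41 and 4.26 scaled CPM in Scramble cells, against 73.5, 65.4 and 43.7 in sgControl cells (log2 change -3.89 ± 0.25 (SE), adjusted p = 1.48e-06). The spread within sgControl was wide for these genes, with replicate 3 lowest for CDC20, PLK1, TK1, MCM5 and E2F1.

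The upstream stretches of CDC20 and E2F1 are shown because they carry the elements by which these genes are known to be tied to the cell cycle, the CHR (TTTGAA) and the E2F site (TTT and CGC with any 2 bases between). Each is the 200 bases before the RefSeq start of GRCh38.p14, 5′ to 3′ on the strand of the gene, with matches on either strand in capitals. For CDC20 it is chr1:43358781-43358980, + strand, with 2 CHR matches that begin 178 and 65 bases before the start, and for E2F1 it is chr20:33686386-33686585, - strand, with 4 E2F matches, of which the last 2 share bases.
CDC20: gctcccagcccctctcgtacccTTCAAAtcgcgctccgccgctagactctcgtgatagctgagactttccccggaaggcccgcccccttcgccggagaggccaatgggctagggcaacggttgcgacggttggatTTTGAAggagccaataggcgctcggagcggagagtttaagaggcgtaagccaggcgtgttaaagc
E2F1: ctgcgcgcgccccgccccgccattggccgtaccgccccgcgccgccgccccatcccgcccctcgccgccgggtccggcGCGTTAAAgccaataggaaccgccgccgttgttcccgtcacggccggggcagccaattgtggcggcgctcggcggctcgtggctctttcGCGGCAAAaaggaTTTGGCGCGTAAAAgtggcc
Of 35116 promoter entries of the same window, 10.3% hold a CHR match and 4.87% an E2F match. A match is a description of the letters and says nothing of what binds there.

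Replication-dependent histone genes were mostly lower, although their transcripts carry no poly(A) tail as a rule. Of 55 listed, 22 passed the count filter, and of these 17 were lower and 2 higher, with a median of -1.89 (-1.07 with total-count scaling, 2 higher and 13 lower). H1-2, a linker histone, had 19.9, 21.8 and 22.4 scaled CPM in Scramble cells, against 416, 538 and 586 in sgControl cells (log2 change -4.58 ± 0.20 (SE), adjusted p = 2.47e-07). H3C10 and H2BC11, core histones, changed by -3.12 ± 0.26 and -3.201 ± 0.32 (adjusted p = 4.6e-06 and 1.4e-05). H2BC12 had 42.5, 45.99 and 47.7 scaled CPM in Scramble cells, against 136, 138 and 113 in sgControl cells (log2 change -1.51 ± 0.16 (SE), adjusted p = 1.95e-05). Histone genes have near-identical copies, so their single counts are uncertain.

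**Figure D4:**
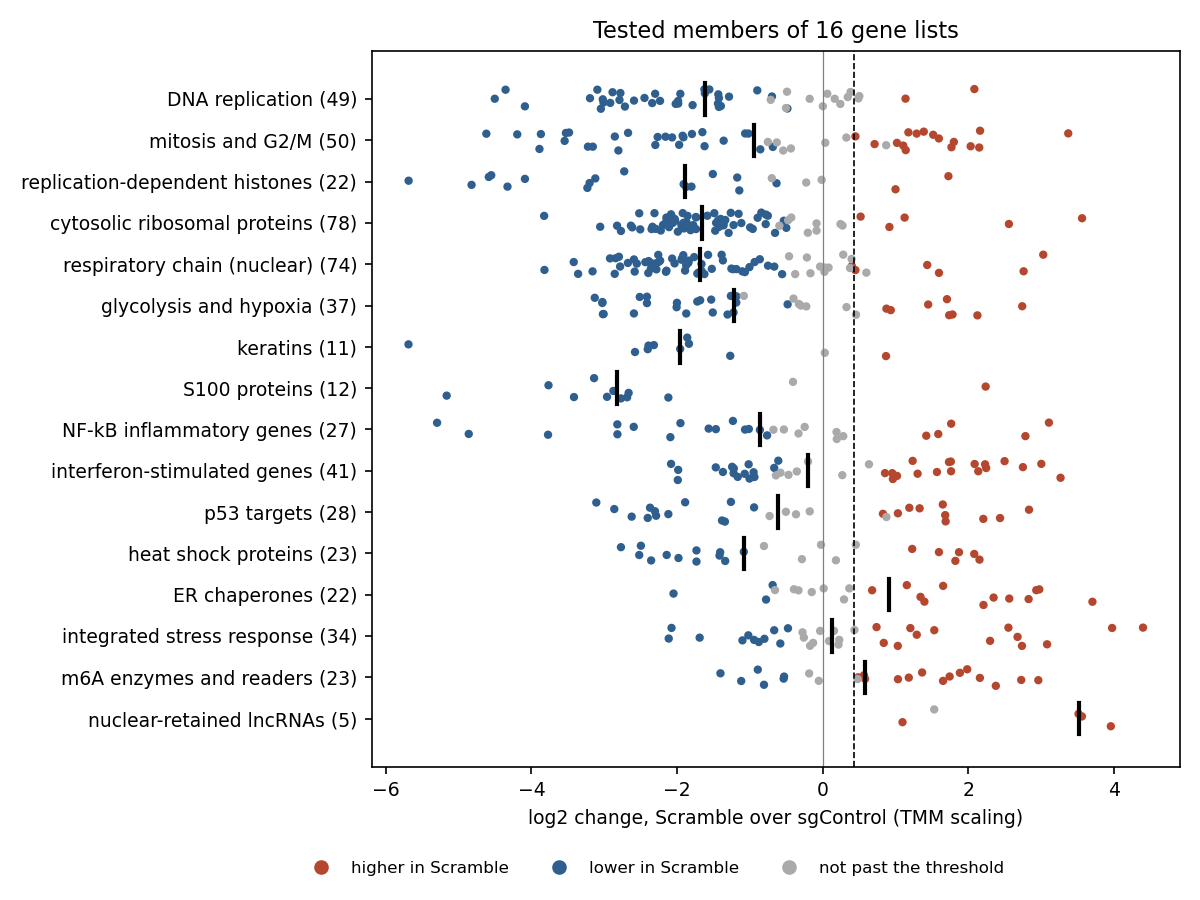
Each point is a tested member of 1 of 16 gene lists, placed by its log2 change of Scramble over sgControl (TMM scaling), red where higher, blue where lower and grey where the threshold was missed. Black bars are list medians, from -2.82 for S100 proteins to 3.52 for nuclear-retained lncRNAs, and the dashed line is the median of all tested genes, 0.42.

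Cytosolic ribosomal protein genes were lower as a group, with 65 of 78 tested lower, 5 higher and a median of -1.66 (-0.83 with total-count scaling, 9 higher and 51 lower). RPS26 had 59.7, 70.7 and 64.05 scaled CPM in Scramble cells, against 905, 848 and 1002 in sgControl cells (log2 change -3.82 ± 0.17 (SE), adjusted p = 2.73e-07), and RPS15A had 16.4, 16.1 and 16.97 scaled CPM in Scramble cells, against 111, 124 and 115 in sgControl cells (log2 change -2.82 ± 0.16 (SE), adjusted p = 8.25e-07). Members went against the group as well. RPS23 had 818, 944 and 897 scaled CPM in Scramble cells, against 68.2, 73.1 and 83.5 in sgControl cells (log2 change 3.56 ± 0.17 (SE), adjusted p = 3.52e-07), and RPL23A had 852, 967 and 917 scaled CPM in Scramble cells, against 149.7, 159 and 156 in sgControl cells (log2 change 2.56 ± 0.15 (SE), adjusted p = 9.14e-07). These genes have many processed pseudogene copies, and lines called not unique made up 2.162% to 2.199% in Scramble and 5.061% to 5.292% in sgControl, so single members are uncertain.

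Genes of the respiratory chain were mostly lower under both scalings. Of 74 tested nuclear-encoded respiratory chain genes, 56 were lower and 6 higher, with a median of -1.69 (-0.87 with total-count scaling, 12 higher and 44 lower). COX6B1, a subunit of cytochrome c oxidase, had 128, 137 and 149 scaled CPM in Scramble cells, against 916, 859.6 and 866 in sgControl cells (log2 change -2.67 ± 0.15 (SE), adjusted p = 8.29e-07), and NDUFS8, an iron-sulphur subunit of complex I, had 119, 121 and 137 scaled CPM in Scramble cells, against 896, 930.2 and 768 in sgControl cells (log2 change -2.78 ± 0.16 (SE), adjusted p = 9.12e-07). ATP5MF and NDUFA3, small subunits of ATP synthase and complex I, changed by -3.82 ± 0.20 and -2.84 ± 0.17. Mitochondrial ribosomal proteins had 48 of 74 lower (64.9%) and 7 higher, with a median of -0.89 (-0.07 with total-count scaling, 18 higher and 29 lower), led by MRPS12 (-2.55 ± 0.17), MRPL21 (-2.801 ± 0.19), MRPL14 (-2.46 ± 0.18) and MRPL54 (-2.34 ± 0.17). Of the 13 mRNAs of the mitochondrial genome, 9 were lower and 0 higher, with a median of -1.23 (-0.40 with total-count scaling, 3 higher and 5 lower). MT-ND3 had 320.3, 288 and 344 scaled CPM in Scramble cells, against 3121, 5688 and 5065 in sgControl cells (log2 change -3.86 ± 0.25 (SE), adjusted p = 1.46e-06), and MT-CO3 had 1829, 1519 and 1785 scaled CPM in Scramble cells, against 5674, 6799 and 6388 in sgControl cells (log2 change -1.88 ± 0.17 (SE), adjusted p = 7.12e-06). MT-CYB changed by -1.43 ± 0.16 and MT-ND4L by -1.75 ± 0.21. All counts of the mitochondrial genome together took 2.288% to 2.477% of gene counts in Scramble and 2.304% to 3.855% in sgControl.

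Glycolysis and hypoxia genes had 22 of 37 lower (59.5%) and 8 higher, with a median of -1.22 (-0.37 with total-count scaling, 13 higher and 16 lower). ENO1, enolase, had 1217, 1152 and 1398 scaled CPM in Scramble cells, against 13063, 11818 and 8093 in sgControl cells (log2 change -3.13 ± 0.22 (SE), adjusted p = 2.29e-06). PKM, pyruvate kinase, had 1874, 1762 and 2080.3 scaled CPM in Scramble cells, against 17815, 17123 and 11355 in sgControl cells (log2 change -3.02 ± 0.22 (SE), adjusted p = 2.51e-06). PGAM1 and TPI1, further enzymes of the pathway, changed by -2.01 ± 0.14 and -2.41 ± 0.18.

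NRF2 targets, genes of redox control and detoxification, had 16 of 24 lower (66.7%) and 6 higher, with a median of -0.97 (-0.15 with total-count scaling, 8 higher and 10 lower). HMOX1, which breaks down haem, had 161, 150.1 and 183 scaled CPM in Scramble cells, against 1772, 1624 and 1169 in sgControl cells (log2 change -3.21 ± 0.20 (SE), adjusted p = 1.32e-06). GPX2, a glutathione peroxidase, and TKT, transketolase of the pentose phosphate pathway, changed by -3.83 ± 0.24 and -2.99 ± 0.20 (adjusted p = 1.34e-06 and 1.74e-06). Aldehyde dehydrogenases and aldo-keto reductases had 15 of 22 lower and 5 higher, with a median of -1.01 (-0.17 with total-count scaling, 7 higher and 9 lower). ALDH3A1, an aldehyde dehydrogenase of epithelia, had 344, 319.7 and 409.9 scaled CPM in Scramble cells, against 9181, 8647 and 5328 in sgControl cells (log2 change -4.43 ± 0.26 (SE), adjusted p = 9.14e-07). AKR1B1, aldose reductase, had 1208, 1255 and 1384 scaled CPM in Scramble cells, against 15500.4, 14131 and 13077 in sgControl cells (log2 change -3.47 ± 0.18 (SE), adjusted p = 4.97e-07), and AKR1C1 changed by -2.43 ± 0.16. ALDH1L2, the mitochondrial folate enzyme, went the other way, with 44.5, 47.96 and 36.6 scaled CPM in Scramble cells, against 1.38, 2.63 and 2.07 in sgControl cells (log2 change 4.401 ± 0.27 (SE), adjusted p = 1.23e-06). All 3 tested metallothioneins, the metal-binding proteins, were lower, with a median of -2.76 (-1.92 with total-count scaling). MT2A had 149, 161 and 170.5 scaled CPM in Scramble cells, against 1169, 1074 and 1009 in sgControl cells (log2 change -2.76 ± 0.16 (SE), adjusted p = 8.25e-07), while MT1F and MT1X changed by -2.93 ± 0.22 and -2.09 ± 0.41.

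Iron genes had 6 of 10 higher and 4 lower, with a median of 0.96 (1.79 with total-count scaling, 6 higher and 2 lower). Over the 5 with a clear span, 2 were higher and 3 lower. Their median was -0.56, against -0.41 over all clear coding genes. FTL, the light chain of ferritin, had 6716, 7149 and 7070.2 scaled CPM in Scramble cells, against 21743, 21453 and 17978 in sgControl cells (log2 change -1.55 ± 0.17 (SE), adjusted p = 2.26e-05), against the higher FTH1 (log2 change 1.28 ± 0.17 (SE), adjusted p = 7.79e-05). IREB2, an RNA-binding protein that represses ferritin translation when iron is low, had 65.1, 67.4 and 53.04 scaled CPM in Scramble cells, against 9.64, 10.3 and 17.3 in sgControl cells (log2 change 2.31 ± 0.26 (SE), adjusted p = 2.52e-05).

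Lipid synthesis genes were divided. Cholesterol genes had 13 of 24 lower and 8 higher, with a median of -0.78 that turned to 0.05 with total-count scaling (11 higher, 8 lower), and FDFT1 (-1.897 ± 0.15), EBP (-2.37 ± 0.20), TM7SF2 (-2.46 ± 0.23) and NSDHL (-1.93 ± 0.19), all enzymes of sterol synthesis, were lower. Fatty acid genes had 8 of 14 higher and 5 lower, with a median of 0.95 (1.77 with total-count scaling, 9 higher and 4 lower). Over the 4 with a clear span, 2 were higher and 2 lower. Their median was -0.51, against -0.41 over all clear coding genes. FASN, fatty acid synthase, had 169, 155 and 173 scaled CPM in Scramble cells, against 1729, 1395 and 806 in sgControl cells (log2 change -2.98 ± 0.27 (SE), adjusted p = 7.49e-06), and ACLY, which makes its acetyl-CoA, changed by -1.67 ± 0.19. ACSL3, which activates long-chain fatty acids, had 141, 135 and 136 scaled CPM in Scramble cells, against 17.3, 28.8 and 31.1 in sgControl cells (log2 change 2.42 ± 0.23 (SE), adjusted p = 9.89e-06), and ME1, malic enzyme, changed by 1.801 ± 0.19.

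Epithelial structural genes differed by family. Keratins, the intermediate filaments of epithelia, had 9 of 11 tested lower and 1 higher, with a median of -1.96 (-1.12 with total-count scaling, 2 higher and 8 lower). KRT8 had 2746, 2562 and 3204 scaled CPM in Scramble cells, against 19419, 18629.6 and 12726 in sgControl cells (log2 change -2.58 ± 0.22 (SE), adjusted p = 5.08e-06), and KRT7 had 1340.4, 1244 and 1673 scaled CPM in Scramble cells, against 8712, 6972 and 6644 in sgControl cells (log2 change -2.39 ± 0.20 (SE), adjusted p = 4.36e-06). KRT81 and KRT18 changed by -2.402 ± 0.19 and -1.86 ± 0.23, and KRT15, a basal keratin, had 3, 2 and 5 counts in Scramble and 178, 85 and 189 in sgControl (log2 change -5.69 ± 0.47 (SE), adjusted p = 4.56e-06). The spans of KRT7, KRT8, KRT18 and KRT81 overlap another gene with strand unknown, while that of KRT15 is clear. Over the 6 keratins with a clear span, 5 were lower and 0 higher. Junction genes had 11 of 24 higher (45.8%) and 9 lower (37.5%), shares near those of all genes, with a median of 0.59 (1.42 with total-count scaling, 15 higher and 5 lower). Over the 9 junction genes with a clear span, 3 were higher and 6 lower. Their median was -0.88, against -0.41 over all clear coding genes. DSG2, a desmosomal cadherin, had 185, 175 and 159 scaled CPM in Scramble cells, against 16.8, 20.3 and 26.3 in sgControl cells (log2 change 3.03 ± 0.20 (SE), adjusted p = 1.67e-06), and TJP1 and OCLN, of tight junctions, changed by 2.17 ± 0.19 and 2.6005 ± 0.25. JUP, plakoglobin, had 93.2, 82.9 and 95.2 scaled CPM in Scramble cells, against 684, 717 and 344 in sgControl cells (log2 change -2.68 ± 0.27 (SE), adjusted p = 1.47e-05). The desmosome genes DSG2, DSP and JUP thus did not move one way. Of these, JUP has a clear span, while the spans of DSG2 and DSP overlap another gene, as do those of TJP1 and OCLN.

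S100 proteins, small calcium-binding proteins, had 10 of 12 tested lower and 1 higher, with a median of -2.82 (-1.99 with total-count scaling, 1 higher and 10 lower). S100A4, known from motile and metastatic cells, had 52.9, 59.3 and 60.2 scaled CPM in Scramble cells, against 1939.9, 1956 and 2283 in sgControl cells (log2 change -5.16 ± 0.18 (SE), adjusted p = 1.61e-07). S100A10, the partner of annexin A2, had 143, 152 and 165 scaled CPM in Scramble cells, against 1131, 1035 and 968 in sgControl cells (log2 change -2.77 ± 0.16 (SE), adjusted p = 8.29e-07). S100A3 and S100A6 changed by -3.14 ± 0.16 and -2.87 ± 0.17. The genes for S100A4, S100A3 and S100A6 overlap a gene on the opposite strand.

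Mesenchymal genes and EMT regulators had 4 of 16 higher and 7 lower, with a median of 0.03 (0.86 with total-count scaling, 9 higher and 5 lower). Over the 5 with a clear span, 0 were higher and 4 lower. Their median was -1.16, against -0.41 over all clear coding genes. VIM, vimentin, had 705, 667 and 788 scaled CPM in Scramble cells, against 217, 269 and 271 in sgControl cells (log2 change 1.51 ± 0.16 (SE), adjusted p = 2.05e-05), and ZEB1, a repressor of CDH1, had 14.6, 15.6 and 11.9 scaled CPM in Scramble cells, against 1.46, 1.99 and 2.14 in sgControl cells (log2 change 2.901 ± 0.25 (SE), adjusted p = 6.51e-06). CDH1, E-cadherin, was higher as well, with 92.2, 84.1 and 84.997 scaled CPM in Scramble cells, against 36.8, 35.8 and 36.3 in sgControl cells (log2 change 1.26 ± 0.15 (SE), adjusted p = 4.07e-05). ITGA5, the fibronectin receptor subunit, changed by -2.01 ± 0.21. The spans of VIM, ZEB1 and ITGA5 overlap an opposite-strand gene, and that of CDH1 overlaps a gene with strand unknown, so these values are uncertain. TGF-beta and matrix genes had 12 of 36 higher and 17 lower, with a median of -0.27 that turned to 0.54 with total-count scaling (17 higher, 7 lower). TGFBR1, a receptor kinase, had 56.3, 52.7 and 47.3 scaled CPM in Scramble cells, against 1.78, 3.98 and 2.998 in sgControl cells (log2 change 4.15 ± 0.29 (SE), adjusted p = 1.98e-06), and COL12A1 (1.96 ± 0.20) and PLOD2 (2.42 ± 0.27), a collagen and a collagen-modifying enzyme, were higher. TIMP1, a metalloproteinase inhibitor, had 92.6, 84.5 and 110.3 scaled CPM in Scramble cells, against 646, 600.1 and 416 in sgControl cells (log2 change -2.53 ± 0.21 (SE), adjusted p = 4.64e-06). The spans of TGFBR1 and TIMP1 overlap another gene, while those of COL12A1 and PLOD2 are clear. Of 10 laminin chains, 3 were higher and 5 lower, with a median of -0.28 that turned to 0.56 with total-count scaling (5 higher, 3 lower), and LAMB1 (1.39 ± 0.15) was higher while LAMB3 (-1.69 ± 0.22) and LAMC3 (-2.62 ± 0.38) were lower.

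Inflammatory genes tied to NF-kB had 15 of 27 tested lower (55.6%), 5 higher and a median of -0.86 (-0.02 with total-count scaling, 8 higher and 8 lower). CCL2, the chemokine that draws monocytes, had 2.93, 1.55 and 2.63 scaled CPM in Scramble cells, against 72.1, 77.1 and 129 in sgControl cells (log2 change -5.295 ± 0.34 (SE), adjusted p = 1.38e-06). IL32, a cytokine, had 26.3, 27.1 and 31.3 scaled CPM in Scramble cells, against 213, 189.7 and 195 in sgControl cells (log2 change -2.82 ± 0.16 (SE), adjusted p = 8.73e-07), and LTB, lymphotoxin beta, had 4, 7 and 5 counts in Scramble and 119, 130 and 149 in sgControl (log2 change -4.86 ± 0.29 (SE), adjusted p = 1.04e-06). RELB, a subunit of the non-canonical NF-kB dimer, had 41.1, 36.5 and 46.9 scaled CPM in Scramble cells, against 336, 314 and 229 in sgControl cells (log2 change -2.82 ± 0.20 (SE), adjusted p = 2.18e-06). In each of the 4 every Scramble library was below every sgControl library. The span of IL32 overlaps another gene, while those of CCL2, LTB and RELB are clear.

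The interferon genes IFNL1, IFNB1, IFNL2 and IFNL3 were lower in Scramble, while interferon-stimulated genes went both ways in shares near those of all genes. IFNB1, IFNL2 and IFNL3 were chosen after their values were seen, and no list of interferon genes was made. IFNL1, a type III interferon, lies at chr19:39296407-39298673 and had 21.8, 20.4 and 23.6 scaled CPM in Scramble cells, against 673, 619 and 533 in sgControl cells (log2 change -4.79 ± 0.18 (SE), adjusted p = 1.81e-07). IFNL2 and IFNL3, close relatives that may share reads, changed by -2.23 ± 0.19 and -2.82 ± 0.23 (adjusted p = 5.05e-06 and 3.88e-06). IFNB1, the type I interferon of epithelia, had 6.11, 5.24 and 6.46 scaled CPM in Scramble cells, against 65.8, 112 and 192 in sgControl cells (log2 change -4.38 ± 0.38 (SE), adjusted p = 6.3e-06), and its sgControl libraries differed among themselves more than those of IFNL1 did. Against sgDAMP, the change of IFNL1 was -4.44 and that of IFNB1 -4.34. Interferon-stimulated genes had 18 of 41 higher (43.9%) and 16 lower (39%), against 46.1% and 33.4% of all tested genes. Their median was -0.20 and turned to 0.60 with total-count scaling (21 higher, 6 lower). OASL, an antiviral protein of the oligoadenylate synthetase family, had 346, 352 and 364 scaled CPM in Scramble cells, against 1556, 1491 and 1450.4 in sgControl cells (log2 change -2.08 ± 0.14 (SE), adjusted p = 2.03e-06), and IFI27 had 17.4, 16.2 and 18.9 scaled CPM in Scramble cells, against 67.1, 70.3 and 70.7 in sgControl cells (log2 change -1.99 ± 0.17 (SE), adjusted p = 4.77e-06). HERC5, the ligase of ISG15, had 67.9, 63.3 and 68.7 scaled CPM in Scramble cells, against 14.6, 19.2 and 13.2 in sgControl cells (log2 change 2.09 ± 0.20 (SE), adjusted p = 9.31e-06), and PARP14 had 64.1, 61.9 and 49.6 scaled CPM in Scramble cells, against 10.2, 14.8 and 12.4 in sgControl cells (log2 change 2.23 ± 0.21 (SE), adjusted p = 9.65e-06). MHC class I genes had 3 of 18 higher and 10 lower, with a median of -0.76 that turned to 0.08 with total-count scaling (7 higher, 1 lower). ERAP1, which trims peptides, had 62.6, 61.96 and 63.6 scaled CPM in Scramble cells, against 6.72, 5.82 and 4.21 in sgControl cells (log2 change 3.49 ± 0.22 (SE), adjusted p = 1.26e-06), PDIA3 changed by 1.399 ± 0.15, and the immunoproteasome subunits PSMB9 and PSMB8 by -2.12 ± 0.18 and -1.11 ± 0.16. The spans of HERC5, ERAP1, PSMB8 and PDIA3 overlap another gene, so their values are uncertain. Those of OASL, IFI27, PARP14 and PSMB9 are clear.

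The stretch before the start of IFNB1 is shown because it holds the element known to bind NF-kB in the interferon-beta enhancer. It is chr9:21077943-21078142 (GRCh38.p14, RefSeq), - strand, 200 bases 5′ to 3′, with the only match to GGGA and CC with any 4 bases between, on either strand, in capitals, which begins 66 bases before the start.
IFNB1: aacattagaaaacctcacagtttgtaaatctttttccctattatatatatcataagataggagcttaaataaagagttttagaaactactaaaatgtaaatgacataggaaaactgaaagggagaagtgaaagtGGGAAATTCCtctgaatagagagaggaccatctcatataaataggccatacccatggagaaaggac
This motif occurs in 19% of the 35116 promoter windows.

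**Figure D5:**
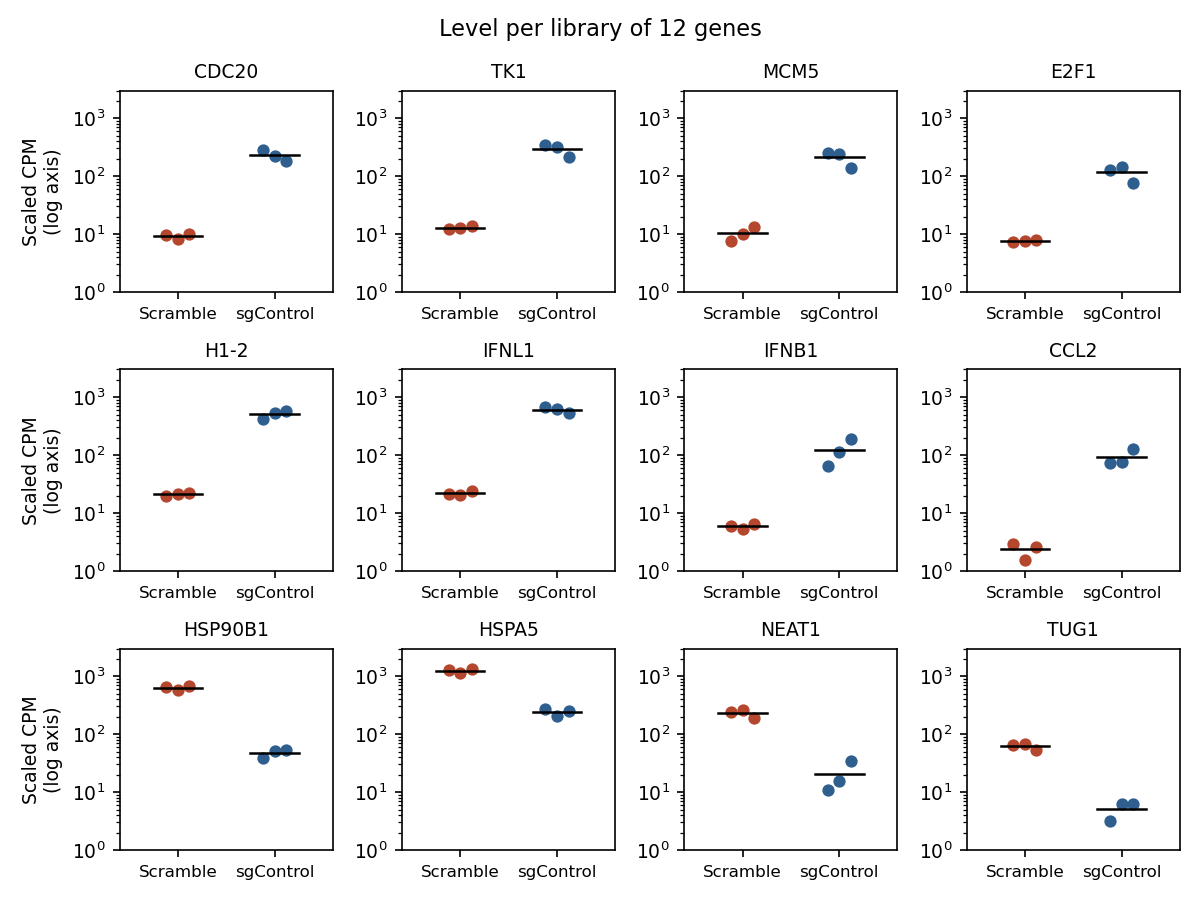
Scaled CPM (log axis) of 12 genes in each library, with red points for Scramble left of blue points for sgControl and black bars for the mean of 3 libraries. Scramble lies below sgControl for CDC20, TK1, MCM5, E2F1, H1-2, IFNL1, IFNB1 and CCL2 and above it for HSP90B1, HSPA5, NEAT1 and TUG1, with no overlap of the groups in any panel.

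Immediate-early genes had 12 of 24 lower and 6 higher, with a median of -0.24 that turned to 0.58 with total-count scaling (12 higher, 8 lower). EGR1, an early transcription factor of growth factor signalling, had 8.46, 9.23 and 7.24 scaled CPM in Scramble cells, against 65.2, 51.9 and 49.9 in sgControl cells (log2 change -2.74 ± 0.20 (SE), adjusted p = 2.72e-06). FOSB had 5, 3 and 2 counts in Scramble and 98, 83 and 73 in sgControl (log2 change -4.88 ± 0.38 (SE), adjusted p = 3.33e-06). BTG2 and IER5 changed by -2.402 ± 0.19 and -2.04 ± 0.18. In the list of ERBB receptors, ligands and feedback regulators, 11 of 24 were higher (45.8%, near the 46.1% of all genes) and 5 lower, with a median of 0.50 (1.34 with total-count scaling, 16 higher and 3 lower). Over its 13 members with a clear span, 6 were higher and 2 lower. Their median was 0.39, against -0.41 over all clear coding genes. NCI-H1975 is known to carry an activated EGFR, which gives this list its place here. FOSL1, a late transcription factor of ERK signalling, had 28.8, 32.5 and 35.01 scaled CPM in Scramble cells, against 662, 563 and 399 in sgControl cells (log2 change -4.08 ± 0.23 (SE), adjusted p = 7.77e-07). ERRFI1, a feedback inhibitor of EGFR, had 217, 219.6 and 204 scaled CPM in Scramble cells, against 38.8, 37.4 and 63.97 in sgControl cells (log2 change 2.19 ± 0.22 (SE), adjusted p = 1.58e-05). PHLDA1, the partner of PHLDA1-AS1 above, had 192, 213 and 206 scaled CPM in Scramble cells, against 23.6, 35.2 and 51.97 in sgControl cells (log2 change 2.46 ± 0.27 (SE), adjusted p = 2.13e-05), and the ligand gene BTC changed by 3.05 ± 0.42.

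Targets of p53 were divided, with 10 of 28 higher, 13 lower and a median of -0.62 that turned to 0.20 with total-count scaling (12 higher, 11 lower). DDB2, a damage sensor of nucleotide excision repair, had 25.8, 23.7 and 21.2 scaled CPM in Scramble cells, against 214, 194 and 202 in sgControl cells (log2 change -3.11 ± 0.16 (SE), adjusted p = 5.7e-07). CDKN1A, the CDK inhibitor p21, had 385, 393 and 431 scaled CPM in Scramble cells, against 2464, 2073 and 1713 in sgControl cells (log2 change -2.37 ± 0.18 (SE), adjusted p = 3.16e-06), a lower level in the same libraries in which replication genes were lower. PHLDA3, an AKT repressor, had 188, 172 and 222 scaled CPM in Scramble cells, against 1343, 1232 and 1007 in sgControl cells (log2 change -2.62 ± 0.18 (SE), adjusted p = 2.07e-06), and AEN, a nuclease of apoptosis, changed by -2.86 ± 0.18. The spans of CDKN1A and AEN overlap an opposite-strand gene, while those of DDB2 and PHLDA3 are clear. BCL2 family genes had 6 of 16 higher and 8 lower, with a median of -0.30 that turned to 0.54 with total-count scaling (8 higher, 5 lower). The killers BAX (-2.29 ± 0.19), BAK1 (-2.17 ± 0.18) and BIK (-2.34 ± 0.26) were lower, and BCL2L11, or BIM, was higher (1.74 ± 0.21).

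Chaperones of the endoplasmic reticulum had 12 of 22 higher (54.5%, against 46.1% of all genes), 3 lower and a median of 0.92 (1.75 with total-count scaling, 18 higher and 1 lower). Over members with a clear span 7 of 16 were higher and 3 lower, with a median of 0.19. Of all clear coding genes, 32.3% were higher, with a median of -0.41. HSP90B1, the GRP94 chaperone, had 638, 584 and 669 scaled CPM in Scramble cells, against 38.96, 51.5 and 54.4 in sgControl cells (log2 change 3.71 ± 0.19 (SE), adjusted p = 4.8e-07). HSPA5, the BiP chaperone that senses unfolded protein, had 1263, 1139 and 1316 scaled CPM in Scramble cells, against 271, 208 and 251 in sgControl cells (log2 change 2.35 ± 0.17 (SE), adjusted p = 2.29e-06). SEL1L, which hands misfolded proteins on for degradation, had 136, 135 and 124 scaled CPM in Scramble cells, against 14.8, 17.52 and 17.8 in sgControl cells (log2 change 2.98 ± 0.17 (SE), adjusted p = 7.94e-07). EDEM1, of the same route, changed by 2.56 ± 0.17. In each of these genes every Scramble library was above every sgControl library.

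The upstream stretches of HSPA5 and HSP90B1 are shown because both hold the endoplasmic reticulum stress element (CCAAT and CCACG with any 9 bases between), which is known to bind NF-Y and ATF6. They are chr9:125241344-125241543, - strand, and chr12:103930210-103930409, + strand, of GRCh38.p14, 5′ to 3′, with matches on either strand in capitals. HSPA5 has 1 match, which begins 66 bases before the start, and HSP90B1 has 2, which begin 194 and 89 bases before it.
HSPA5: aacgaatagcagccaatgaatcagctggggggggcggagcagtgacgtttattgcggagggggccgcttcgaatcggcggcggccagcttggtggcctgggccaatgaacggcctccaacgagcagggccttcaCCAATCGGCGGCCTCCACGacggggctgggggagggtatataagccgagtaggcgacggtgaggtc
HSP90B1: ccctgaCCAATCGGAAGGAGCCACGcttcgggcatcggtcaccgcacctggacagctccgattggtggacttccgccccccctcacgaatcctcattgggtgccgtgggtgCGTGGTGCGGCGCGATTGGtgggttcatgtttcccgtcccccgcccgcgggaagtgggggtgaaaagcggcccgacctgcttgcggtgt
The element occurs in 22 of the 35116 promoter windows, or 0.0626%.

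Heat shock proteins of the cytosol and mitochondria had 12 of 23 lower and 6 higher, with a median of -1.08 (-0.25 with total-count scaling, 7 higher and 10 lower). HSPB1, the small heat shock protein HSP27, had 253, 239 and 323 scaled CPM in Scramble cells, against 1797, 1691 and 1178 in sgControl cells (log2 change -2.52 ± 0.21 (SE), adjusted p = 5.42e-06), and STIP1 and HSPB8 changed by -2.36 ± 0.16 and -1.98 ± 0.16. HSPD1, the mitochondrial chaperonin, had 378, 393 and 402 scaled CPM in Scramble cells, against 72.9, 94.9 and 109 in sgControl cells (log2 change 2.08 ± 0.18 (SE), adjusted p = 6.12e-06). Proteasome subunits had 17 of 30 lower and 7 higher, with a median of -0.93 (-0.10 with total-count scaling, 11 higher and 13 lower), and PSMB3 (-2.59 ± 0.15), PSMB5 (-2.58 ± 0.17), PSMD8 (-2.196 ± 0.15) and PSMC4 (-2.37 ± 0.17) were lower. Integrated stress response genes had 13 of 34 higher and 11 lower, with a median of 0.12 (0.95 with total-count scaling, 23 higher and 3 lower). Over the 21 with a clear span, 8 were higher and 6 lower. Their median was -0.03, against -0.41 over all clear coding genes. XPOT, which exports tRNA, had 300.0, 319 and 271 scaled CPM in Scramble cells, against 14.9, 18.2 and 23.3 in sgControl cells (log2 change 3.98 ± 0.21 (SE), adjusted p = 5.7e-07), and SLC7A11, the cystine transporter, had 259, 254 and 205 scaled CPM in Scramble cells, against 17.7, 29.6 and 37.2 in sgControl cells (log2 change 3.08 ± 0.27 (SE), adjusted p = 6.12e-06). VLDLR changed by 2.55 ± 0.18. Of 20 aminoacyl-tRNA synthetases, 8 were higher and 8 lower, with a median of 0.10 (0.93 with total-count scaling, 11 higher and 4 lower), and with NARS1 (2.71 ± 0.23) and EPRS1 (2.27 ± 0.16) at one end and VARS1 (-3.23 ± 0.26) and FARSA (-2.61 ± 0.22) at the other. Over the 11 synthetases with a clear span, 6 were higher and 5 lower. Their median was 1.62, against -0.41 over all clear coding genes.

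AKT-mTOR and PI3K genes had 14 of 26 higher (53.8%) and 9 lower (34.6%), shares near those of all genes, with a median of 0.76 (1.59 with total-count scaling, 17 higher and 5 lower). Over the 8 with a clear span, 5 were higher and 2 lower. Their median was 1.07, against -0.41 over all clear coding genes. PIK3CA, the catalytic subunit of PI3K, had 181, 224 and 144 counts in Scramble and 2, 7 and 14 in sgControl (log2 change 4.3004 ± 0.42 (SE), adjusted p = 1.18e-05). The adaptor IRS2 changed by 2.17 ± 0.16, and MLST8, a subunit of mTOR complexes, was lower (-1.87 ± 0.17). Writers, erasers and readers of m6A, the mRNA mark that the study links to YTHDF1, had 14 of 23 higher (60.9%) and 6 lower, with a median of 0.58 (1.41 with total-count scaling, 16 higher and 1 lower). Over the 14 with a clear span, 10 were higher and 3 lower, with a median of 1.11. ZC3H13, of the writer complex, had 26.1, 24.5 and 22.4 scaled CPM in Scramble cells, against 3.56, 2.71 and 3.07 in sgControl cells (log2 change 2.96 ± 0.22 (SE), adjusted p = 2.62e-06). The readers YTHDC1 (2.38 ± 0.22), YTHDC2 (2.73 ± 0.31) and IGF2BP3 (1.65 ± 0.20) were higher. Translation initiation factors and poly(A)-binding proteins had 17 of 44 higher and 18 lower, with a median of 0.22 (1.05 with total-count scaling, 26 higher and 14 lower), where EIF3A (2.42 ± 0.15) and EIF2S2 (2.998 ± 0.24) were higher and EIF6 (-2.41 ± 0.19) and EIF2B5 (-2.11 ± 0.17) lower. Over the 22 members of that list with a clear span, 8 were higher and 11 lower. Their median was -0.26, against -0.41 over all clear coding genes. Notch and WNT genes had 8 of 28 higher and 12 lower, with a median of -0.32 that turned to 0.51 with total-count scaling (14 higher, 5 lower), with the receptor gene LGR4 higher (3.06 ± 0.20) and WNT7B (-2.16 ± 0.22), FZD2 (-1.57 ± 0.19) and JAG2 (-1.68 ± 0.22) lower. Targets of YAP and TEAD had 7 of 17 higher and 8 lower, with a median of -0.22 that turned to 0.60 with total-count scaling (8 higher, 5 lower), with CRIM1 (2.08 ± 0.16) and TEAD1 (2.37 ± 0.29) higher and GADD45B (-2.27 ± 0.17) and AXL (-1.32 ± 0.15) lower.

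Nuclear-retained lncRNAs were higher, 4 of 5 with 0 lower, with a median of 3.52 (4.32 with total-count scaling, 5 higher and 0 lower). NEAT1, the scaffold of paraspeckles, had 244, 261 and 192 scaled CPM in Scramble cells, against 11.1, 15.6 and 34.1 in sgControl cells (log2 change 3.52 ± 0.38 (SE), adjusted p = 2.24e-05). TUG1 had 65.6, 66.5 and 53.6 scaled CPM in Scramble cells, against 3.24, 6.21 and 6.21 in sgControl cells (log2 change 3.56 ± 0.27 (SE), adjusted p = 3.19e-06), and MEG3 changed by 1.098 ± 0.34. KCNQ1OT1 had 16, 14 and 13 counts in Scramble and 0, 0 and 2 in sgControl. Host lncRNAs of snoRNAs had 10 of 23 higher (43.5%) and 9 lower (39.1%), shares near those of all genes. Their median was -0.07 and turned to 0.77 with total-count scaling (13 higher, 5 lower). DANCR, SNHG19, SNHG15 and SNHG9 were lower, with changes of -2.25, -2.11, -1.71 and -2.69 on the log2 scale. Of called lncRNAs with an average log2 CPM of at least 1, the lowest was BCYRN1, a short cytoplasmic RNA. It had 2, 0 and 0 counts in Scramble and 206, 677 and 1120 in sgControl. LINC02970, LINC00475, LINC01366 and LINC00917 followed, with -5.83, -5.33, -5.03 and -4.97. Of called genes that overlap an opposite-strand gene, at an average log2 CPM of at least 3, the lowest were S100A4, MARCHF4 (-4.699 ± 0.32), UPK3B (-4.2996 ± 0.27) and LINC00513 (-4.07 ± 0.24).

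The change of a clear coding gene varied with the length of its RefSeq span, taken in 5 bins of equal size. In the shortest bin (276 to 7179 bases) 745 of 1104 genes were lower and 137 higher, with a median of -1.37. In the longest bin (50801 to 536949 bases) 615 of 1103 were higher and 270 lower, with a median of 0.88. The 3 bins between had medians of -0.95, -0.46 and 0.18. The change also varied with level in 5 bins, with a median of -1.44 in the bin with the highest average log2 CPM and 0.66 in the bin from 2.37 to 3.93. Within each bin of level the shortest spans had a lower median than the longest, from -1.72 against -0.89 at the highest level to -0.78 against 1.57 in the bin from 2.37 to 3.93. Ribosomal, respiratory chain, histone and S100 genes are known to be short, and the part of span length in the lists' medians was not tested.

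Markers of other cell types summed to lower levels than epithelial markers. The 18 epithelial and lung adenocarcinoma markers summed to 7434 to 9096 CPM in Scramble and 19060 to 25140 in sgControl. Of the 10 tested, 6 were lower, among them the abundant KRT7, KRT8 and KRT18, 1 was higher (CDH1) and 3 were not called. Their median was -0.86, and -0.01 with total-count scaling, where 2 were higher and 3 lower. Fibroblast markers summed to 83.46 to 112.9 CPM in Scramble and 205.7 to 306.2 in sgControl, led by FBLN1 (log2 change -2.299 ± 0.23 (SE), adjusted p = 1.34e-05), and 4 of 12 were tested, all lower, THY1 (-3.06 ± 0.27), COL1A1 (-1.36 ± 0.29) and ACTA2 (-1.296 ± 0.25) among them, while POSTN was at 0 in all 6 libraries. Leukocyte markers summed to 3.41 to 4.64 CPM in Scramble and 5.73 to 10.9 in sgControl, with PTPRC, CD3D, CD3E, MS4A1 and NKG7 at 0, and CD14 (-3.41 ± 0.45) and ITGAM (-1.66 ± 0.40) lower. Endothelial markers summed to 1.63 to 1.85 CPM in Scramble and 8.13 to 10.4 in sgControl, with ERG at 0 and ESAM lower (-3.66 ± 0.28). Red blood cell markers reached at most 0.344 CPM in any library, and their 6 genes did not pass the count filter. The spans of THY1, ACTA2, CD14 and ESAM overlap another gene, while those of FBLN1, COL1A1 and ITGAM are clear. The part of other cells in any gene's difference was not tested.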

How the data were processed

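Raw counts per gene, as deposited by the authors in the form HTSeq writes, were analysed for 3 Scramble and 3 sgControl mRNA libraries of NCI-H1975 cells, with 3 sgDAMP mRNA libraries beside them. The submitters' processing notes name Trimmomatic 0.30, HISAT2 2.1.0, SAMtools 1.10, HTSeq 0.11.2, edgeR and the build GRCh38. The annotation release, like the strand setting, is not given in the sources used here. The 5 closing lines that name no gene were left out of library sizes and tests; their shares of all lines are in the report.

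Genes were filtered with filterByExpr (minimum count 10), scaled by TMM and tested two-sided in edgeR 4.0.16 (R 4.3.3) by its quasi-likelihood method. The SE of a log2 change is its size over the root of F. Levels are TMM-scaled CPM. Depth was 10859527 to 17464782 gene counts per library. Ratios with 1 to 3 counts in a group carry exact Clopper-Pearson 95% intervals, and a floor of 3 counts over a group stands for 0. Intervals and floors cover counting error only.

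Of 61487 counted IDs, 40239 matched a RefSeq gene of GRCh38.p14 and 19105 of these had a strand. The spans of matched genes gave the overlap classes, and genes without a strand for themselves or their partner form a class of unknown strand. Small RNA genes and antigen receptor gene segments did not count as partners. Promoter sequences are from RefSeq, GRCh38.p14. Whether equal replicate numbers pair the libraries was checked by the correlation of deviations from group means, which did not show pairing, and the main fit holds no block. The script was tested on simulated data with 200 changed genes, up and down in equal number, far fewer than the 13015 called here. That test therefore does not cover scaling where most genes differ.

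The comparison, the 45 gene lists and the members named were chosen with earlier results of these data known. Named were DSP-AS1 and DSP, the 12 highest and 12 lowest called coding genes with a clear span, an average log2 CPM of at least 3 and no overlap of the groups, up to 4 called members of each list with the smallest p, the 5 highest and 5 lowest called lncRNAs with an average log2 CPM of at least 1, and the 4 highest and 4 lowest called genes that overlap an opposite-strand gene with an average log2 CPM of at least 3. BEST1, MRNIP, SQSTM1, SNX22, PPIB, CTSD, CFL1, E2F1, AURKB, IFNB1, IFNL2 and IFNL3 were chosen after their values were seen. A few genes that the rule names are not reported here. Alternatives were other scalings and filters, DESeq2 1.42.0, limma-voom 3.58.1, subsets of genes, a replicate block, a fit with all 9 mRNA libraries and fits with 1 library left out.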

Additional observations from a re-analysis of the deposited data

How the results depend on the processing

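The count of higher genes was 7544 and that of lower genes 5471. Total-count scaling gave 3156 lower genes, a minimum of 10 counts in all libraries 4707 higher, genes with a clear span alone 2355 higher and 2256 lower, and coding genes with a clear span alone, an alternative chosen after seeing the data, 2169 higher and 2097 lower. The subsets test fewer genes (11808, 6041 and 5527), and with library totals the median tested gene lay 0.83 higher. All other alternatives, among them DESeq2, limma-voom, the other scalings and sgDAMP in place of sgControl (also chosen after seeing the data), stayed within 1.5 times of both counts. Leaving out each library in turn gave 7128 to 8178 higher and 5117 to 5813 lower genes. The replicate numbers did not pair the libraries, with correlations of -0.001, -0.029 and -0.198 for equal numbers, and a replicate block gave 7292 higher and 5086 lower genes. Of the named genes, 2 that missed the threshold turned direction, DSP-AS1 to a log2 change of 0.39 with total-count scaling, and SQSTM1 to 0.48 with total-count scaling and 0.033 against sgDAMP. Over 208 named genes and 4122 values, 4087 kept direction and side of the threshold, 23 lost the threshold, 9 gained it and 3 reversed. Depth limits the genes with few counts in a group, such as GPATCH4 and NELFCD in sgControl, to bounds.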

Other observations

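The footprint libraries of the same 2 controls, of which the report gives BEST1, GPATCH4 and NELFCD, held levels that did not run parallel to mRNA for several named genes. IFNL1 had 86, 81 and 34 footprints in the Scramble libraries and 0 in each of the 3 sgControl libraries, although its mRNA counts summed to 1018 in Scramble and 23558 in sgControl. IFNB1 had 7, 7 and 4 footprints in Scramble and 0 in sgControl, against mRNA sums of 275 in Scramble and 4912 in sgControl. CDC20 had 20 footprints over the Scramble libraries and 6948 over the sgControl libraries, the direction its mRNA had. CCL2 had 264 footprints in Scramble and 1495 in sgControl, and H1-2 had 722 in Scramble and 4189 in sgControl. S100A4 had 2747 footprints in Scramble and 2120 in sgControl, with mRNA sums of 2675 in Scramble and 80485 in sgControl. SQSTM1 had 429 footprints in Scramble and 87293 in sgControl, with mRNA sums of 158775 in Scramble and 170410 in sgControl. Footprint depth was 1035159 to 1302852 gene counts per library in Scramble and 6845899 to 7840852 in sgControl, and no test was made of these values.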
